A study of Mus musculus with 22 samples.

Results

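Transcripts encoded by the mitochondrial genome were followed in the anterior cingulate cortex (ACC) of 22 male C57BL/6J mice. They were taken as every gene of the deposited table whose symbol starts with mt-, which gave 29 genes of 37786, namely 12 protein genes, 2 ribosomal RNAs (rRNAs) and 15 transfer RNAs (tRNAs). The annotation of the mitochondrial chromosome lists 37 genes, of which 13 code for proteins and 22 for tRNAs, and the other 8 (mt-Nd4l and 7 tRNAs) were not analysed here. All mice carried AAV5-CaMKIIa-ChR2(H134R)-EYFP in the basolateral amygdala (BLA), in which the CaMKIIa promoter drives a light-gated channel, together with an optic fibre over the ACC. The 10 stimulated mice (stim) received blue light on BLA terminals in 9 sessions, and the light stayed off in the 12 control mice (ctrl). One library was made from the bulk ACC of each mouse, so replicates are mice, and both groups were built on the same vector and surgery.

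The mitochondrial genome is a small circle whose strands, named heavy and light, are each copied into long RNAs that run through most of the circle. These precursors are processed largely at the tRNAs that lie between the other genes, which frees the individual rRNAs and messenger RNAs. The proteins are all core subunits of the respiratory chain and of ATP synthase, and they assemble with many more subunits made from nuclear genes. In neurons this machinery supplies most of the ATP used for signalling. Most mitochondrial messenger RNAs carry a short poly(A) tail, which lets oligo(dT) primers start complementary DNA on them, as in the full-length amplification used for these libraries. Copies of mitochondrial DNA have also been inserted into nuclear chromosomes over evolution, and a read that fits both places cannot be assigned to one of them.

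Total counts ranged from 23090483 to 43668462 per mouse (median 32560084), so the abundant mitochondrial transcripts were counted with small counting error. The 29 genes held 13829435 counts over all mice, 99.1% of them on protein genes, 0.865% on rRNAs and 0.0791% on tRNAs. A minimum of 10 counts in at least 10 mice was passed by 18 members, which were 8 protein genes, both rRNAs and 8 tRNAs. The remaining 11 members held 1009 counts in all and were not tested. Markers of cortical neurons, astrocytes, oligodendrocytes, microglia, endothelium and blood were all detected in every group, with no marker at 0.

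The members differed in how much of their sequence is found elsewhere. The study counted only reads of 50 bases that aligned to a single place, so each member was divided into all its 50-base windows and each window was looked for in all other annotated transcripts, on both strands. All windows of mt-Co2 (subunit of cytochrome c oxidase, complex IV) were found elsewhere, as were 99.9% of those of mt-Co3 (complex IV), 99.5% of those of mt-Atp6 (ATP synthase, complex V) and 98.0% of those of mt-Nd3 (NADH dehydrogenase, complex I). The share was 62.2% in mt-Nd4, 51.1% in mt-Co1, 8.19% in mt-Nd2, 7.61% in mt-Nd5 and 1.04% in mt-Rnr2. It was 0% in mt-Nd1, mt-Nd6, mt-Cytb, mt-Rnr1 and each tRNA. Over 22 mice mt-Co2 had 1 count, mt-Co3 had 10 counts, mt-Atp6 had 4 counts and mt-Atp8 had 3 counts, so these 4 genes could not be compared between groups. mt-Nd4 passed the count minimum with 502 windows found only there, and mt-Nd3 passed it with 6. The 7 tRNAs that did not pass it had 0% found elsewhere but only 10 to 22 windows each, and those that passed had 17 to 26. Whether shared windows account for low counts was not tested. These counts are no measure of how much of the transcripts the tissue held.

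The shared windows came mainly from 7 annotated pseudogenes on chromosome 1, at chr1:24611535-24616197 of GRCm38 on the minus strand. Over 4663 bases they follow the order of MT:6381-11042, from the 3′ part of mt-Co1 (Gm29216) through mt-Co2 (Gm28661), mt-Atp6 (Gm10925), mt-Co3 (Gm28437), mt-Nd3 (Gm28438) and mt-Nd4l (Gm10222) to the first 876 bases of mt-Nd4 (Gm28439). The aligned bases of mt-Co2 (681 bases), mt-Atp6 (678 bases), mt-Co3 (783 bases), mt-Nd4l (294 bases) and mt-Nd4 (876 bases) held 0 differences from their copies. mt-Nd3 differed from its copy at 1 of 345 bases, T3C, where positions are counted from 1 at the first base of the gene and the mitochondrial base comes first. mt-Atp8 had no window in another annotated transcript, and sequence between annotated genes was not searched. The aligned part of mt-Co2 ends 233 bases before mt-Atp6, as its copy does before that of mt-Atp6, and mt-Atp8 starts in this interval and overlaps mt-Atp6 by 43 bases. The copies themselves were hardly counted either, with 129 counts over all mice on Gm28661, 242 counts on Gm28437 and 77 counts on Gm10925. The first 60 bases of mt-Co2 (MT:7013-7072) and Gm28661 (chr1:24615506-24615565, minus strand) show identical sequence, and those of mt-Nd3 (MT:9459-9518) and Gm28438 (chr1:24613060-24613119, minus strand) show the single difference, in capitals. All are written 5′ to 3′ on the strand of the mitochondrial gene.
mt-Co2: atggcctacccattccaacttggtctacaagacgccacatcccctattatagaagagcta
Gm28661: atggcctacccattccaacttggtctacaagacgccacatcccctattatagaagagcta
mt-Nd3: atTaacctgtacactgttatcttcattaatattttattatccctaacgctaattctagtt
Gm28438: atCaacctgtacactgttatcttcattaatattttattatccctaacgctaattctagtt

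Copies on other chromosomes differed more from the members. The copy of mt-Co1 on chromosome 2, Gm13340, covers all 1545 bases with 37 differences (97.6% identity), and had a median of 71 counts (range 27 to 312). The neighbouring copy of mt-Co2, Gm13341, had a median of 30.5 counts (range 9 to 246), and the copy of part of mt-Nd5 on chromosome 13, Gm4076, had a median of 12.5 counts (range 2 to 64). By comparison mt-Co1 had 54610 to 313894 counts in the same mice. Bases 31 to 120 of mt-Co1 (MT:5358-5447) and of Gm13340 (chr2:22589528-22589617, minus strand) show how far apart the differences lie. C54A, A60G and G87A are in capitals.
mt-Co1: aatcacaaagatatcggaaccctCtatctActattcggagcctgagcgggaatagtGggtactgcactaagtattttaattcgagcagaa
Gm13340: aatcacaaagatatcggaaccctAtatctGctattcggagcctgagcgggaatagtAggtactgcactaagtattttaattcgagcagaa

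**Figure D1:**
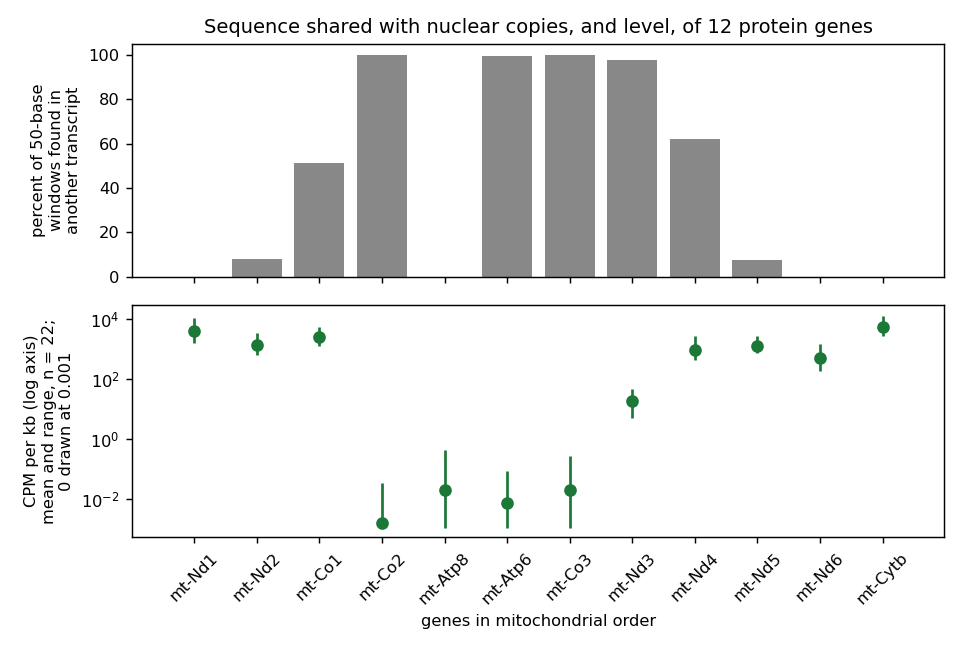
Top, percent of the 50-base windows of 12 mitochondrial protein genes found in another annotated transcript; bottom, CPM per kilobase on a log axis (point, mean; line, range over 22 mice; values under 0.001 are drawn at 0.001). mt-Co2, mt-Atp6 and mt-Co3, with 99.5% to 100% of windows shared, and mt-Atp8, with 0% shared, lay under 1 CPM per kb in every mouse. mt-Nd1 and mt-Cytb, with 0% shared, were among the highest. mt-Nd6, also with 0% shared, lay below mt-Co1 (51.1% shared) and mt-Nd4 (62.2% shared).

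Levels were expressed as CPM, which is a count relative to the TMM-normalized size of its library, and compared between genes only per kilobase of gene. mt-Cytb, the mitochondrial subunit of complex III, was highest with 5511 ± 2921 CPM per kb (mean ± SD, n = 22), above mt-Nd1 (3824 ± 2299 CPM per kb) in 22 of 22 mice. mt-Nd1 was above mt-Co1 (2418 ± 1256 CPM per kb) in 18 mice, so their order varied between mice. mt-Nd2 (1303 ± 655 CPM per kb) and mt-Nd5 (1262 ± 515 CPM per kb) did not differ beyond their spread, with mt-Nd2 higher in 14 mice. mt-Nd2 had the higher mean in the first of these runs and mt-Nd5 in the second. mt-Nd4 followed at 952 ± 555 CPM per kb and mt-Nd6 at 497 ± 306 CPM per kb, each below the gene before it in every mouse. The rRNAs, which form the RNA core of the mitochondrial ribosome, were counted at 81.8 ± 64.5 CPM per kb (mt-Rnr2) and 31.5 ± 24.1 CPM per kb (mt-Rnr1). mt-Nd3 had 18.0 ± 11.3 CPM per kb.

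Dividing by the number of windows that occur only in the member, in place of the length, changed this order. Per 1000 such windows mt-Co1 (5111 ± 2655 CPM) came close to mt-Cytb (5757 ± 3052 CPM), which was higher in 13 of 22 mice. The order of these genes differed between the runs of library numbers described below. mt-Cytb had the higher mean per such window in the first run and mt-Co1 in the second. mt-Nd4 rose to 2613 ± 1523 CPM, above mt-Nd2 (1489 ± 749 CPM) in 22 mice. mt-Nd3, with only 6 such windows of 299, moved to 1046 ± 656 CPM, above mt-Nd6 (549 ± 338 CPM) in 22 mice. The value for mt-Nd3 rests on very few positions and has no other support here.

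As a share of all mitochondrially encoded counts, mt-Cytb took 32.7 ± 3.08% (SD, n = 22 mice), mt-Co1 took 20.1 ± 5.02%, mt-Nd1 took 18.5 ± 2.32% and mt-Nd5 took 12.6 ± 1.66%. mt-Nd2 held 7.15 ± 0.623%, mt-Nd4 held 6.70 ± 0.762% and mt-Nd6 held 1.31 ± 0.207%. mt-Co1 thus varied most of the abundant members, from 11.5% to 28.0% between mice. The 7 members on the light strand, namely mt-Nd6 and 6 tRNAs, held 1.36 ± 0.199% together. No strand setting is stated for the counting, so reads of a light-strand gene and of RNA copied from the opposite strand at the same place cannot be told apart.

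The mitochondrially encoded share of all counts differed 4.90-fold between the lowest and the highest mouse. It ran from 1.04% to 4.81% in ctrl mice (median 1.76%) and from 0.982% to 2.80% in stim mice (median 1.49%). The means were 2.19 ± 1.24% (SD, n = 12) and 1.61 ± 0.651% (n = 10), a difference of -0.584 percentage points. The groups overlapped, with 5 of 10 stim mice below the ctrl median, 3 of 12 ctrl mice above every stim mouse and 2 stim mice below every ctrl mouse. ctrl replicates 1 and 2 had the highest shares (4.41% and 4.81%), and without them the difference was -0.102 percentage points. In bulk tissue, fewer cells that are rich in mitochondria and less mitochondrial RNA per cell cannot be told apart.

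The labels number the libraries from 1 to 23 without a number 7, and pass through ctrl and then stim mice once in numbers 1 to 11 (6 ctrl, 4 stim) and again in numbers 12 to 23 (6 ctrl, 6 stim). According to its methods the study used more than 1 batch of animals. The labels do not say which mouse belonged to which, so these runs of library numbers are a split of the labels and are not called batches. The mitochondrially encoded share was 2.66 ± 1.13% in the first run (n = 10) and 1.32 ± 0.368% in the second (n = 12). Within the first run it was 2.93 ± 1.40% in ctrl and 2.25 ± 0.429% in stim mice, and within the second 1.46 ± 0.390% and 1.18 ± 0.314%. The stim mean was lower in both runs, by less than the SD among the ctrl mice.

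**Figure D2:**
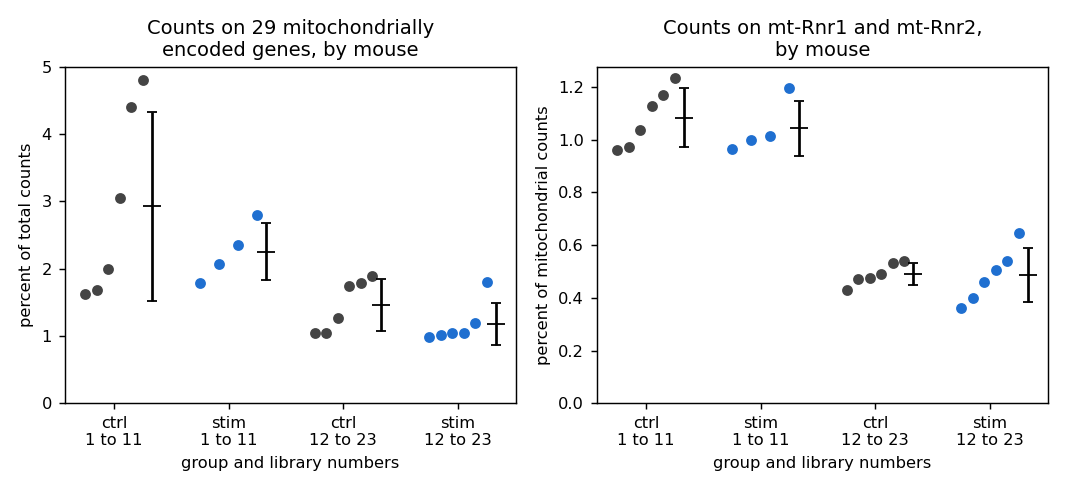
Left, percent of total counts on the 29 mitochondrially encoded genes; right, percent of those counts on mt-Rnr1 and mt-Rnr2. Each point is a mouse, sorted by value within ctrl (grey) and stim (blue) and within the runs of library numbers, and bars are mean ± SD. Groups overlapped within each run on the left, and the runs did not overlap on the right (means 1.07% and 0.487%).

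The comparison of stim with ctrl mice asks what repeated activation of BLA terminals did to transcripts of the ACC. Every mitochondrially encoded gene tested had a lower fitted level in stim mice, but none passed the adjusted threshold. With edgeR's quasi-likelihood test and group as the only term, 0 of 18 members had an adjusted p under 0.05, against 0% of all 17524 genes tested, and every member's adjusted p was 0.9998. The DESeq2 Wald test and limma voom also called 0 of the 18. At an unadjusted p under 0.05, 3 members were lower and 0 higher, whereas 2.61% of all genes tested were lower at that threshold. Of these 3, mt-Tp met the count minimum only within ctrl mice, the group where it was high. The median log2 fold change was -0.52 over the 18 members and 0.01 over all genes, of which 47.5% had a log2 fold change under 0. The members are pieces of the same few precursor RNAs and are not independent of each other, so their shared sign is not 18 separate observations.

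Among complex I subunits, log2 fold changes ran from -0.59 in mt-Nd6 to -0.29 in mt-Nd5. mt-Nd1 lay between 1647 and 9993 CPM in ctrl mice (median 3196 CPM) and between 1498 and 5001 CPM in stim mice (median 2754 CPM), a log2 fold change of -0.49 ± 0.30 (SE; unadjusted p = 0.120 by edgeR). mt-Nd6, the only light-strand protein gene, lay between 123 and 767 CPM in ctrl (median 229 CPM) and between 91.2 and 309 CPM in stim mice (median 207 CPM), at -0.59 ± 0.30 (unadjusted p = 0.0591 by edgeR). In both genes the upper ctrl mice stood above all stim mice, 3 mice for mt-Nd1 and 4 for mt-Nd6, and the lower parts of the groups overlapped. mt-Nd2 (-0.48 ± 0.24), mt-Nd3 (-0.46 ± 0.35), mt-Nd4 (-0.42 ± 0.29) and mt-Nd5 (-0.29 ± 0.21) were also estimated lower, with unadjusted p-values of 0.0577 to 0.202.

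mt-Cytb of complex III ranged from 2985 to 14767 CPM in ctrl (median 5691 CPM) and from 3140 to 9480 CPM in stim mice (median 5043 CPM), at -0.35 ± 0.28 (unadjusted p = 0.218 by edgeR). Without ctrl replicates 1 and 2 the estimate for mt-Cytb was 0.0052. mt-Co1, the catalytic subunit of complex IV, ranged from 1941 to 8634 CPM in ctrl (median 3305 CPM) and from 2021 to 5438 CPM in stim mice (median 2572 CPM), at -0.55 ± 0.25 (unadjusted p = 0.0381, adjusted p = 0.9998 by edgeR). For mt-Co1, 8 of 10 stim mice were below the ctrl median and 3 of 12 ctrl mice were above every stim mouse, so the groups overlapped over most of their range. mt-Rnr2 ranged from 38.2 to 368 CPM in ctrl (median 107 CPM) and from 30.4 to 214 CPM in stim mice (median 73.5 CPM), at -0.56 ± 0.45. mt-Rnr1 was at -0.59 ± 0.42. The rRNAs had wider errors than the abundant messenger RNAs.

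The 3 tRNAs with the most counts were mt-Tq (glutamine), mt-Tm (methionine) and mt-Tl1 (a leucine tRNA), each with 22 or more counts in every mouse. mt-Tq lay between 2.37 and 7.71 CPM in ctrl (median 3.78 CPM) and between 1.49 and 4.17 CPM in stim mice (median 2.84 CPM), at -0.55 ± 0.22 (unadjusted p = 0.0191, adjusted p = 0.9998 by edgeR). 8 of 10 stim mice were below the ctrl median. mt-Tp (proline) had the largest estimate of the 18 members, at -1.06 ± 0.43 (unadjusted p = 0.0207 by edgeR), on only 641 counts over all mice. It met the count minimum within ctrl mice, the group where it was high, but not within stim mice. mt-Tm was at -0.41 ± 0.22 and mt-Tl1 at -0.45 ± 0.32. A tRNA is shorter than most fragments of such a library, so counts on tRNA genes can also come from longer precursors that run through them.

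When the fit also held the run of library numbers, the median over members was -0.36 and 18 of 18 remained under 0. 6 members then had an unadjusted p under 0.05, all lower (mt-Co1, mt-Nd6, mt-Tq, mt-Tc, mt-Ti and mt-Tp), against 5.45% of all genes tested, and their smallest adjusted p was 0.357. Of these 6, mt-Ti and mt-Tp met the count minimum only within ctrl mice, the group where they were high. Within library numbers 1 to 11 the median was -0.43 with 1 member at an unadjusted p under 0.05 (3.34% of all genes), and within 12 to 23 it was -0.39 with 3 members (8.3% of all genes). mt-Co1 was at -0.46 ± 0.43 in the first run and -0.57 ± 0.16 in the second. Without ctrl replicates 1 and 2 the median over members was -0.18, 0 members had an unadjusted p under 0.05 (1.73% of all genes were lower at it), and 16 of 18 were under 0. The interaction of group and run gave 0 members with an adjusted p under 0.05, against 0% of all genes. At an unadjusted p under 0.05 it gave 0 of 18 members, beside 1403 of 17524 genes. Its SEs ran from 0.34 (mt-Cytb) to 0.79 (mt-Ta), so a difference between the runs as large as the group estimates could be missed.

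**Figure D3:**
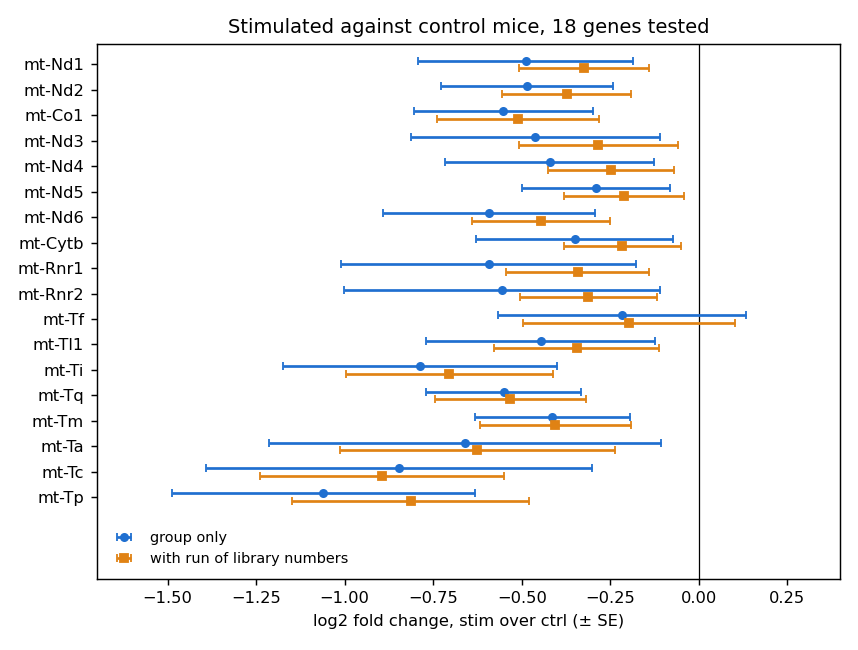
Log2 fold change of stim over ctrl mice (± SE) for the 18 members tested, from the fit with group alone (blue circles) and with the run of library numbers added (orange squares). All estimates lie under 0 in both fits, with medians of -0.52 and -0.36, and no member had an adjusted p under 0.05.

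Nuclear genes that serve mitochondria had medians near 0 with group as the only term. Of 82 nuclear-encoded subunits of the respiratory chain and ATP synthase that were tested, 0 had an adjusted p under 0.05, 2 were lower and 0 higher at an unadjusted p under 0.05 (2.61% and 0.999% of all genes), and their median log2 fold change was -0.03. When the fit also held library runs, 2 were lower and 6 higher at that threshold (median 0.07), beside 6.05% of all genes higher. In that fit 14 of the 82 (17.1%) had a log2 fold change under 0, beside 47.4% of all genes. The 77 mitochondrial ribosomal proteins tested had a median of 0.01 and 0 genes at either threshold. With library runs in the fit 0 were lower and 19 higher at an unadjusted p under 0.05 (median 0.08), again beside 6.05% of all genes higher, and 9 of the 77 (11.7%) were under 0. Of 42 nuclear genes for copying, transcribing and processing mitochondrial nucleic acid, 1 was lower and 1 higher at an unadjusted p under 0.05, with a median of 0.00. With library runs in the fit 1 was lower and 4 higher (median 0.02), and 17 of the 42 (40.5%) were under 0. Polrmt, the mitochondrial RNA polymerase, was at 41.7 ± 8.53 CPM in ctrl and 41.9 ± 7.10 CPM in stim mice, and Tfam, which packages mitochondrial DNA and starts its transcription, was at 46.2 ± 6.20 CPM and 47.3 ± 5.52 CPM. Lrpprc, which stabilizes mitochondrial messenger RNAs, was at 71.3 ± 24.2 CPM and 77.7 ± 24.9 CPM, and Ppargc1a, a coactivator of mitochondrial biogenesis, at 58.0 ± 13.3 CPM and 57.5 ± 12.1 CPM. None of these 4 differed by more than the SD in either group.

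Other lists also held markers that differed between the groups without adjustment, with 0 genes of any of them at an adjusted p under 0.05 by edgeR. At an unadjusted p under 0.05, 2.61% of all genes were lower in stim mice, 3.34% within library numbers 1 to 11 and 8.3% within 12 to 23. All 6 oligodendrocyte markers were lower in stim mice at an unadjusted p under 0.05 (median log2 fold change -0.76), with summed levels of 3121 to 19204 CPM in ctrl and 2281 to 5702 CPM in stim mice. Within library numbers 1 to 11 their median was 0.08 with 0 markers at that threshold, and within 12 to 23 it was -1.34 with all 6, whereas the median over the mitochondrially encoded genes was -0.43 and -0.39. The nuclear-retained RNAs Malat1, Meg3 and Neat1 had a median of -0.47, of which Neat1 was lower at an unadjusted p under 0.05, and summed to 514 to 2281 CPM in ctrl and 435 to 1829 CPM in stim mice. Their median was 0.03 with 0 of 3 at that threshold within library numbers 1 to 11, and -1.01 with all 3 lower within 12 to 23. Of 3 choroid plexus markers, 2 were tested and 1 was lower at an unadjusted p under 0.05 (Ttr, -1.86 ± 0.59, median of both -0.97), and the list summed to 3.53 to 132 CPM in ctrl and 4.71 to 16.2 CPM in stim mice. The 7 neuron markers summed to 6342 to 11263 CPM in ctrl and 7244 to 12001 CPM in stim mice, with 0 at an unadjusted p under 0.05. The part of any of these in the lower mitochondrial estimates was not tested.

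The runs of library numbers separated the members far more than the groups did. Adjusted for group, 13 of 18 members were lower in library numbers 12 to 23 with an adjusted p under 0.05 by edgeR and 2 were higher, and the median log2 fold change was -1.09. Of these 15, mt-Ti and mt-Tp (lower) and mt-Tc and mt-Ta (higher) reached 10 counts in 10 mice only within the run where they were high. So many genes differed between the runs, however, that 34.3% of all genes tested were lower and 33.7% higher at that threshold (median log2 fold change -0.03). The 2 rRNAs had the largest decreases. mt-Rnr2 lay between 136 and 368 CPM in the first run (median 180 CPM) and between 30.4 and 94.7 CPM in the second (median 47.9 CPM), a log2 fold change of -2.01 ± 0.19 (adjusted p = 1.15e-09 by edgeR). mt-Rnr1 lay between 28.1 and 84.9 CPM and between 8.61 and 25.0 CPM (-1.81 ± 0.20, adjusted p = 1.34e-08 by edgeR). With mt-Nd3 they were the 3 members whose runs did not overlap, a pattern held in the lower direction by 12.2% of all genes tested.

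The 8 protein genes shared the direction but not the size. mt-Nd3 (-1.34 ± 0.22), mt-Nd1 (-1.17 ± 0.18), mt-Nd4 (-1.14 ± 0.18), mt-Nd6 (-1.10 ± 0.19) and mt-Cytb (-1.08 ± 0.16) fell by about the same amount. mt-Nd2 (-0.77 ± 0.18) and mt-Nd5 (-0.57 ± 0.17) fell less. mt-Co1 was at -0.45 ± 0.23 with an adjusted p of 0.0786 by edgeR, and ranged from 1941 to 8634 CPM in the first run and from 2086 to 5121 CPM in the second. Between neighbours on the same precursor the ratio changed too: mt-Nd1 had 3.00 ± 0.128 counts per mt-Nd2 count in the first run (n = 10, range 2.76 to 3.19) and 2.28 ± 0.153 in the second (n = 12, range 1.90 to 2.45), without overlap. The rRNAs made up 1.07% of mitochondrially encoded counts in the first run and 0.487% in the second, again without overlap. mt-Rnr2 had 4.51 ± 0.422 counts per mt-Rnr1 count in the first run and 3.92 ± 0.469 in the second, with overlapping ranges.

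**Figure D4:**
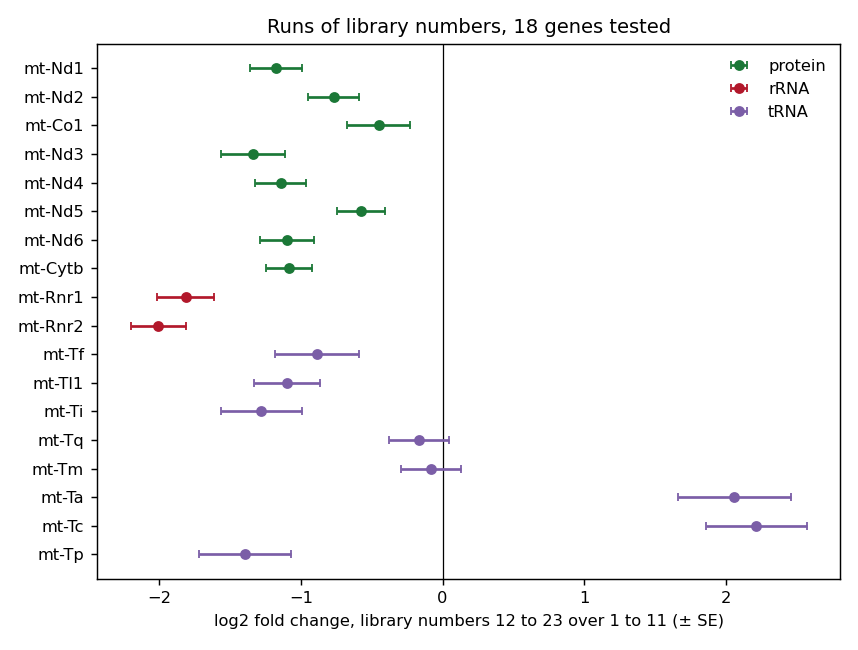
Log2 fold change of library numbers 12 to 23 over 1 to 11 (± SE), with group in the fit, for the 18 members tested, coloured by class. The rRNAs lie lowest, at -2.01 and -1.81, the protein genes between -1.34 and -0.45, and mt-Ta and mt-Tc alone lie clearly above 0, at 2.06 and 2.21.

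The tRNAs did not all go the same way. mt-Tp (-1.39 ± 0.33), mt-Ti (-1.28 ± 0.29), mt-Tl1 (-1.10 ± 0.23) and mt-Tf (-0.89 ± 0.30) fell in the second run with adjusted p-values of 0.000166 to 0.0104 by edgeR. mt-Ti and mt-Tp each reached 10 counts in 10 of 10 mice of the first run, and in only 5 (mt-Ti) and 8 (mt-Tp) of 12 of the second. Both thus passed the count minimum through the run where they were high. mt-Tq (-0.16 ± 0.21) and mt-Tm (-0.08 ± 0.21) did not pass the test. mt-Tc (cysteine) rose by 2.21 ± 0.36 (adjusted p = 4.90e-06) and mt-Ta (alanine) by 2.06 ± 0.40 (adjusted p = 6.53e-05). mt-Tc lay between 0.106 and 1.02 CPM in the first run (median 0.284 CPM) and between 0.449 and 3.67 CPM in the second (median 1.94 CPM). mt-Ta lay between 0.200 and 1.14 CPM (median 0.408 CPM) and between 0.433 and 5.49 CPM (median 2.13 CPM). The runs overlapped at their edges, with 9 of 12 mice of the second run above the whole first run for mt-Tc and 8 of 12 for mt-Ta. Both genes passed the count minimum in all 12 mice of the second run but in only 6 (mt-Tc) and 8 (mt-Ta) of 10 mice of the first.

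mt-Ta (MT:5018-5086), mt-Tn (asparagine, MT:5089-5159) and mt-Tc (MT:5192-5257) lie next to each other on the light strand, before the 5′ end of mt-Co1 (MT:5328-6872), which is on the other strand. mt-Ty, not analysed here, lies between mt-Tc and mt-Co1. mt-Tn was looked at after its neighbours' values were known. It did not pass the count minimum, with 10 or more counts in 0 mice of the first run and 7 of the second. The sequences of these tRNA genes are given 5′ to 3′ on their own strand, since mt-Ta and mt-Tc are the members that were higher in the second run and mt-Tn lies between them, followed by those of mt-Tq (MT:3772-3842, light strand) and mt-Tm (MT:3845-3913, heavy strand), which did not pass the test. No base is set in capitals.
mt-Ta: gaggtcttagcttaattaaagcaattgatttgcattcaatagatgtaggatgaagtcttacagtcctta
mt-Tn: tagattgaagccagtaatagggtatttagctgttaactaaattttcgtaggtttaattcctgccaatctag
mt-Tc: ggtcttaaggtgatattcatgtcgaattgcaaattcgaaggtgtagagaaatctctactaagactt
mt-Tq: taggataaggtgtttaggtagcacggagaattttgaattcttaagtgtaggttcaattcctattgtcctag
mt-Tm: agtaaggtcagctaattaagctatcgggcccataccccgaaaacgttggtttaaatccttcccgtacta

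Counts on these neighbours and on mt-Co1 are set side by side as a description, since mt-Ta and mt-Tc were picked for their difference between the runs. mt-Co1 had 0.468 ± 0.124 counts per mt-Cytb count in the first run (n = 10, range 0.300 to 0.590) and 0.770 ± 0.151 in the second (n = 12, range 0.504 to 0.963). mt-Ta, mt-Tn and mt-Tc together had 24.4 ± 5.86 counts per 100000 mt-Co1 counts in the first run (range 16.4 to 36.3) and 143 ± 69.9 in the second (range 39.4 to 246), without overlap. Even in the highest mouse the 3 tRNAs thus held under 1% of the counts of mt-Co1. Within the second run the ratio was 167 ± 58.4 in ctrl mice (range 76.7 to 246) and 118 ± 76.5 in stim mice (range 39.4 to 202), which overlapped.

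**Figure D5:**
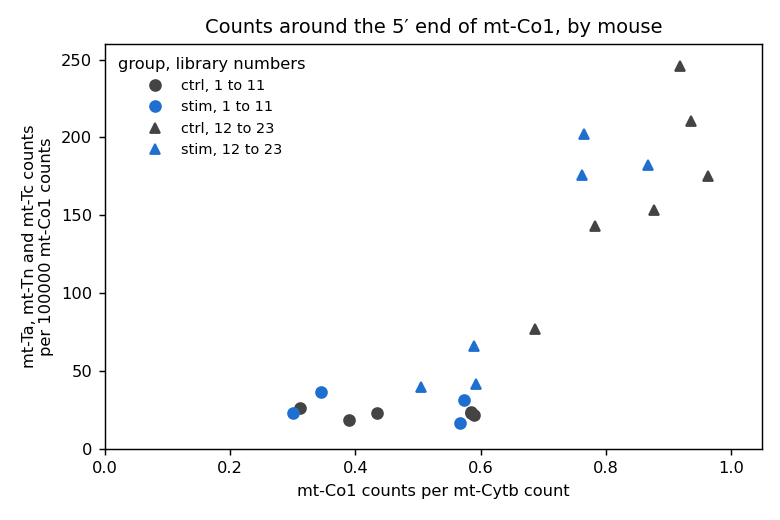
Counts on mt-Ta, mt-Tn and mt-Tc per 100000 mt-Co1 counts against mt-Co1 counts per mt-Cytb count, 1 point per mouse (circles, library numbers 1 to 11; triangles, 12 to 23; grey, ctrl; blue, stim). All circles lie at or under 36.3 on the vertical axis, and the triangles lie between 39.4 and 246.

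Nuclear-encoded subunits of the same complexes were lower in the second run as well. Of 82 tested, 80 were lower and 0 higher with an adjusted p under 0.05 by edgeR, and the median log2 fold change was -0.90. All 5 complexes took part, with 34 of 35 genes lower in complex I, 3 of 4 in complex II (which has no mitochondrially encoded subunit), 9 of 9 in complex III, 17 of 17 in complex IV and 17 of 17 in complex V. Of 77 mitochondrial ribosomal proteins, 74 were lower and 0 higher (median -0.74). The 42 genes of mitochondrial gene expression were divided, with 18 lower and 15 higher (median 0.05), shares near those of all genes tested (34.3% lower, 33.7% higher). Polrmt rose by 0.45 ± 0.07, Ppargc1a by 0.52 ± 0.07 and Lrpprc by 0.79 ± 0.11, whereas Tfam fell by 0.26 ± 0.06. The smallest p-values in each direction belonged to Polg, the mitochondrial DNA polymerase (0.77 ± 0.07), and Ppargc1b (0.66 ± 0.07), and to Rexo2, a mitochondrial exonuclease (-0.57 ± 0.05), and Hsd17b10, a subunit of the enzyme that cuts the 5′ ends of tRNAs (-0.80 ± 0.08). All 8 had adjusted p-values of at most 0.000298.

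Values of other cell types and of RNA makeup also differed between the runs. The 4 hemoglobin genes fell (median log2 fold change -1.43), with summed levels of 146 to 548 CPM in the first run and 63.7 to 152 CPM in the second. 5 of 7 neuron markers, 4 of 5 astrocyte markers and 3 of 4 endothelial markers rose, 1 endothelial marker fell, and of 5 microglia markers 2 rose and 2 fell, all with an adjusted p under 0.05, a threshold at which 33.7% of all genes rose and 34.3% fell. Of the 2 choroid plexus markers tested, Kl rose by 1.38 ± 0.22 and Ttr was at -1.13 ± 0.51 (adjusted p = 0.0508 by edgeR). The 6 oligodendrocyte markers did not pass the test (median 0.40). Malat1 fell by 1.06 ± 0.21 and Meg3 fell by 0.57 ± 0.22, and Neat1 rose by 0.57 ± 0.25. Their part in the difference of mitochondrially encoded transcripts between runs was not tested.

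Mice of the same group and run still differed more in these transcripts than in most others. The SD of log2(CPM + 0.5) within group and run had a median of 0.482 over the 18 members (range 0.325 to 0.698) and of 0.227 over all 17524 genes tested. The smallest SDs were those of mt-Ti (0.325) and mt-Tf (0.376). Their mean levels of 0.504 and 0.613 CPM are close to the added 0.5, which narrows their spread on this scale. The most variable members were mt-Ta (0.698) and mt-Co1 (0.622), and the latter had a larger SD than 99.1% of genes. Within runs, the rRNA share and the protein share of all counts had a Pearson r of 0.971 and a Spearman rho of 0.964 in the first run (n = 10) and 0.931 and 0.839 in the second (n = 12). Without the 2 mice farthest from the median of the rRNA share, r was 0.913 and 0.938. The mitochondrially encoded share and the total counts had r of -0.545 (rho -0.309) and -0.245 (rho -0.406), and -0.131 and -0.214 without the 2 mice farthest from the median of total counts. These 4 relations are given as descriptions with no test, since both shares are sums over members that come from the same libraries.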

How the data were processed

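RNA of bulk ACC from 12 ctrl and 10 stim mice was sequenced as single-end reads of 50 bases. After adapter trimming (cutadapt 1.10) and alignment to mm10 (STAR 2.5.3a), the authors assigned reads with a unique alignment to genes using HTSeq 0.6.1p1. They deposited these counts, which were analysed here, and the counts divided by size factors, a signal used only to check the size factors. Their own DESeq2 1.22.1 comparison (fold changes and p-values) was not used. Its covariates, RNA integrity and batch, are not in the labels, so group was the only term.

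edgeR 4.0.16 (R 4.3.3, TMM, quasi-likelihood test) was fitted to 17524 genes (minimum 10 counts, reached in 10 mice or more) and p-values were adjusted over all of them by Benjamini-Hochberg. On simulated counts it recovered 91.3% of 195 changed genes between groups among 17254 genes tested, with 0.559% of its calls false. Between runs it recovered 96.9% of 195 among 17315, with 2.58% of its calls false. Recovery at the sizes estimated for the members was not tested separately. DESeq2 1.42.0 and limma 3.58.1 were alternatives. No 2 libraries agreed within sampling noise (smallest mean chi-square per gene 9.19 over 231 pairs). Genes were matched by identifier to GENCODE M21 (GRCm38), with 29 of 29 members found. Windows were searched in its 141730 transcripts on both strands, since no genome sequence was used here. Sequences are from that release.

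Members, lists, tests and alternatives were chosen with earlier results of these data known. All protein genes and rRNAs are named, with the 3 tRNAs of most counts and those that passed a test. mt-Tn, mt-Tf in the comparison of runs, the ratios between members and the fits without ctrl replicates 1 and 2 were added after seeing the data.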

Additional observations from a re-analysis of the deposited data

How the results depend on the processing

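Over all alternatives run, including each of the 22 mice left out in turn, 0 mitochondrially encoded genes had an adjusted p under 0.05 between stim and ctrl mice. The number at an unadjusted p under 0.05, 3 as reported, was 6 with the DESeq2 Wald test, 8 with limma voom and quality weights, 6 with the run of library numbers, 7 with that run and normalization without these genes, 1 within library numbers 1 to 11, 0 without ctrl replicates 1 and 2 and 0 with the run as well. It was 12 of 18 when replicate numbers entered as a replicate block over replicates 1 to 10. The number of all genes at that threshold moved too, from 632 as reported to 733 with DESeq2, 1857 with limma voom, 2015 with the run, 1946 with that run and normalization without these genes, 974 within library numbers 1 to 11, 440 without ctrl replicates 1 and 2, 1483 with the run as well, and 1291 with the block. In that paired comparison the median log2 fold change was -0.42 and the share of counts differed by -0.656 percentage points. The numbers do not pair the mice by design, the correlation of same-numbered deviations ran down to -0.37 and passed 0.1 in 8 of 10 pairs, the exceptions being numbers 5 and 6, whose ctrl and stim mice lie in different runs of library numbers, and 2 of 10 stim mice correlated best with their own number.

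Leaving out each mouse in turn gave 1 (without ctrl replicate 2) to 7 genes at an unadjusted p under 0.05 (without ctrl replicate 5, ctrl replicate 8 or stim replicate 1), beside 471 to 909 of all genes, and medians of -0.61 to -0.34, the latter without ctrl replicate 2. Directions turned in mt-Tf within library numbers 1 to 11 (0.11), and without ctrl replicates 1 and 2 in mt-Cytb (0.0052) and mt-Tf (0.0040) between groups and in mt-Tq (0.057) and mt-Tm (0.13) between runs. Leaving out ctrl replicate 2 alone also lowered the number of members under 0 between runs from 16 to 15, and no other single mouse did. Between runs, 11 (of 13, with 10 counts in every mouse) to 19 members (of 29, without a count minimum, of which 25 were lower) passed the adjusted threshold, beside 10710 of 14554 and 13627 of 37571 genes in all. With 1 to 10 counts over all mice, mt-Co2, mt-Co3, mt-Atp6 and mt-Atp8 could not be compared.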
